A study of Mus musculus with 9 samples.

Results

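AII amacrine cells are small-field inhibitory interneurons of the mammalian inner retina. They collect the signal of rods from rod bipolar cells through AMPA-type glutamate receptors and pass it on in 2 ways, through gap junctions made of connexin-36 to ON cone bipolar cells and through glycine release onto OFF cone bipolar and ganglion cells. They are known for the adaptor protein Dab1, the homeobox factor Prox1 and sodium-channel spikes. The cells described here were called AII-like by 3 demands on single-cell RNA counts. A cell had to hold UMIs (unique molecular identifiers, 1 per captured RNA molecule) of at least 2 of the amacrine transcription factors Pax6, Tfap2a and Tfap2b. It had to hold at least 3 of the 4 markers Dab1, Spink13, Kcnh1 and Tll1, with a sum of at least 5 per 10000 UMIs. It had to have fewer than 2 UMIs of Ebf3 and no more Gad1 plus Gad2, the enzymes of GABA synthesis, than Slc6a9, the glycine transporter GlyT1. Of 31089 cells, 634 met the rule.

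The cells came from the retinas of 9 mice, pooled from both eyes of a mouse and profiled by split-pool barcoding (Evercode). All 9 mice carried RPE65-ERT2-Cre with the floxed alleles miR-211fl and miR-204fl. Tamoxifen-activated Cre is driven there from the Rpe65 promoter in the retinal pigment epithelium (RPE), so that an amacrine cell was not the cell targeted for deletion. The 5 dKO mice (S05 to S09) received tamoxifen at 75 mg/kg on 5 days from postnatal day 28, and the 4 control mice (S01 to S04) received corn oil. The label gives 6 months as the time point. The deleted microRNAs are shown because the dKO and control comparison turns on them. Their RefSeq sequences (GRCm38.p6), with the seed at bases 2 to 8 in capitals, are
mmu-miR-204-5p: uUCCCUUUgucauccuaugccu
mmu-miR-211-5p: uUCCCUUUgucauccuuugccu
Both are 22 bases long, share the seed and differ at 1 base. Neither Mir204 nor Mir211 is a gene of the matrix, so the deletion could not be checked. Trpm3, the host gene of miR-204, stood at 515 ± 185 CPM (SD, n = 8) in AII-like cells and was lower there than in other glycinergic, Ebf3-positive glycinergic and GABAergic amacrine cells, by log2 fold changes of -3.09, -1.99 and -1.73. Trpm3 is also expressed in the RPE, whose RNA was found in the other glycinergic class as given further on, and without cells rich in RPE or rod RNA the first value was -1.23. In S07 the level was 483 CPM in AII-like and 439.7 CPM in other glycinergic cells. Trpm1, the host of miR-211, had 182 ± 130.4 CPM (SD, n = 8) and was not called in any of these 3 comparisons, which are explained further on.

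The depth of a mouse ranged from 15079143 to 66528160 UMIs, and a typical AII-like cell was deep, with a median of 21909.5 UMIs and 5036.5 genes, against 4698 UMIs in rods. Mice S04, S05 and S07 stood apart before any gene was compared. Rods made up 68.6% to 78.6% of their cells and 28.2% to 39.7% of the cells of the other 6 mice, and Y-linked and Xist RNA also separated these 3 mice from the others, although the labels give no sex. Over all cells, Y-linked RNA stood at 404 to 424 CPM in these 3 mice and at 4.25 to 4.96 CPM in the other 6. Xist stood at 35.4 to 51.8 CPM in these 3 mice and at 1377 to 1570 CPM in the other 6. No cell barcode was shared between mice. Samples S06 and S07 carry 1 animal number in the labels but differ in Y-linked and Xist RNA, and were kept as separate mice. Nothing in the labels says more on how independent the mice were, so p-values measure the spread between these samples.

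The rule removed cells in steps. At least 2 of the 3 transcription factors were found in 4172 cells, 1003 of these had at least 3 of the 4 markers, 837 also reached the marker sum, 754 were also under the Ebf3 limit, and 634 also passed the demand on Gad1 and Gad2. The markers chose the cells and are therefore given as a description without a test. All 4 markers were present in 541 of the 634 cells (85.3%). Dab1, the adaptor of Reelin signalling, had UMIs in 100% of the cells with a median of 89.1 per 10000 UMIs. Spink13, which belongs to a family of serine protease inhibitors, was found in 90.2% with a median of 7.32. Kcnh1, a voltage-gated potassium channel, was found in 98.3% with a median of 9.83, and Tll1, an astacin metalloprotease of the BMP1 and tolloid group, in 96.8% with a median of 10.1. Slc6a9 was present in 95.1%, and 90 cells (14.2%) held a Gad1 or Gad2 UMI. The marker sum ran from 5.04 through a median of 124 to 229 per 10000 UMIs. The highest cell outside that failed on the sum alone had 4.77, and 31 cells failed on the sum alone. Most AII-like cells thus lay far above the limit of 5.

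Each marker was also read in cells chosen by the other 3. This is a description, since all 4 belong to the rule and the other glycinergic cells were those that did not meet it, which lowers their shares by construction. Of 539 cells chosen by Spink13, Kcnh1 and Tll1, 100% had Dab1, which was also in 92.7% of other glycinergic, 99.2% of Ebf3-positive glycinergic and 66.6% of GABAergic cells. Spink13 was in 89.7% of 603 cells chosen by the others, against 6.11% of other glycinergic, 45.3% of Ebf3-positive glycinergic, 7.26% of GABAergic and 2.52% of rod cells. Kcnh1 was in 98.0% of 552 chosen cells, 55.3% of other glycinergic, 53.1% of Ebf3-positive glycinergic and 23.1% of GABAergic cells. Tll1 was in 96.4% of 561 chosen cells, 10.7% of other glycinergic, 27.3% of Ebf3-positive glycinergic and 40.3% of GABAergic cells. Rods, which should lack them, had shares of 2.52% to 22% at a median of 4698 UMIs per cell.

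**Figure D1:**
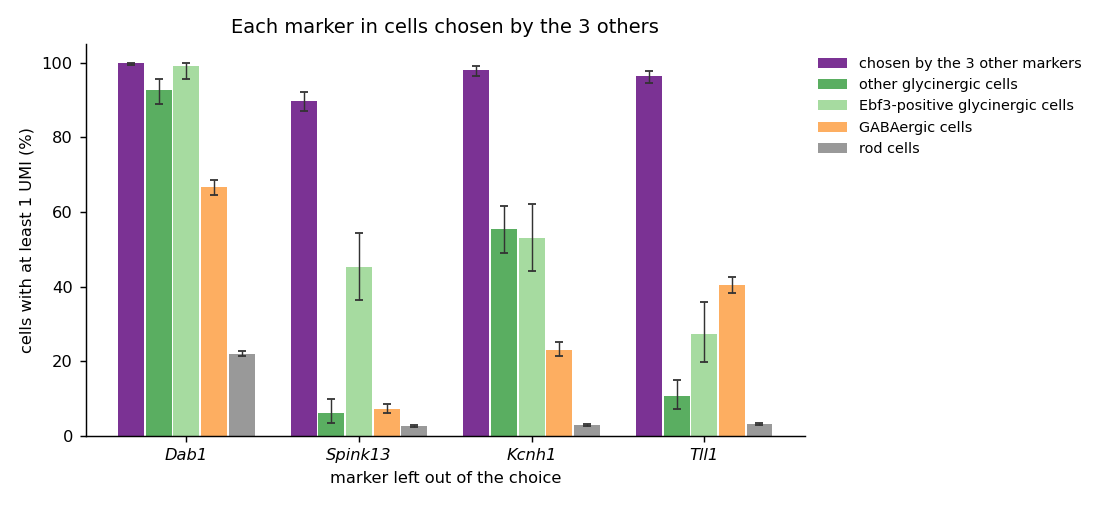
Share of cells with at least 1 UMI of each marker (y axis, percent) in cells chosen by the 3 other markers and in 4 comparison classes (bars, exact 95% binomial intervals for counting error). Spink13 and Tll1 reach 89.7% and 96.4% in the chosen cells and stay at or under 45.3% in every comparison class.

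Clustering of the amacrine cells without the genes of the rule placed 501 of the 634 cells (79.0%) in 2 of 35 clusters, which held 503 cells in all. The larger one had 462 AII-like cells. The smaller one had 39 and had the rod genes Cnga1, Rcvrn, Pde6a and Nr2e3 among its leading genes. The other 133 cells lay across further clusters. All 4 markers were present in 96.4% of the 501 cells and in 43.6% of the 133, and the median marker sum was 132 and 35.7 per 10000 UMIs. Gjd2, which encodes connexin-36, stood at 244 CPM (counts per 1000000 UMIs, summed over the cells) in the 501 cells and 61.3 CPM in the 133, and Prox1 at 1099 and 566 CPM. Cpne8, a copine that was lower than in every other class as described further on, stood at 2.23 CPM in the 501 cells and 126 CPM in the 133. The rule thus holds a core and a margin that differ in these genes.

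Several groups in that margin carried RNA of other cells. A group of 42 cells had 1536 CPM of Glul, the glutamine synthetase of Müller glia, at a median of 37234 UMIs per cell. A group of 11 cells was led by cone genes, with 3166 CPM of the cone arrestin Arr3, at 36564 UMIs. These are deeper than the 21290 UMIs of the main cluster, and doublets were not called. A group of 10 had 6059 CPM of Glul, 905 CPM of Rlbp1 and no UMI of Slc6a9 or Scn1a. A group of 10 cells was led by genes that include Lhx1 and Onecut3, transcription factors of horizontal cells, and had Prox1 at 1287 CPM with Gjd2 at 18.2 CPM. Over all AII-like cells, 6 horizontal cell markers took 0.0444% of UMIs. They took 0.0322% in other glycinergic, 0.0155% in Ebf3-positive glycinergic and 0.0135% in GABAergic cells. In the comparisons explained further on, 2 of 6 tested were called higher against other glycinergic, 3 of 5 against Ebf3-positive and 5 of 5 against GABAergic cells. The shares called higher over all genes were 12.5%, 9.78% and 18.7%. In the core, which leaves that group out, Prox1 stood at the 1099 CPM given above. In a group of 20 cells none had all 4 markers, and Shisa9, an AMPA receptor auxiliary protein, reached 5402 CPM with Gria1 at 3139 CPM, while Prox1 was at 6.04, Spink13 at 9.06 and Gjd2 at 9.06 CPM. The label AII-like rests best on the 501 cells of the core. The share of a mouse's AII-like cells that lay in the core ran from 58.3% in S05 and 61.1% in S07 to 86.8% in S02.

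Control mice S01 to S04 gave 94, 121, 75 and 4 AII-like cells, and dKO mice S05 to S09 gave 12, 120, 36, 88 and 84. As shares of all cells these were 2.28%, 3.13%, 2.32% and 0.148% in control and 0.741%, 2.90%, 0.765%, 2.75% and 2.41% in dKO mice. The 3 rod-rich mice were the low ones in both groups, and the groups overlapped. The control mean was 1.97% ± 1.28 (SD, n = 4) and the dKO mean 1.91% ± 1.07 (SD, n = 5), which an exact two-sided permutation test did not separate (p = 0.968, smallest possible p 0.0159). Without S04, S05 and S07 the means were 2.58% and 2.69% (exact p = 0.8, where 3 against 3 mice cannot go below 0.1). Of the glycinergic amacrine cells, AII-like cells made up 56.4% ± 20.8 (SD, n = 4) where corn oil was given and 56.7% ± 12.0 (SD, n = 5) after tamoxifen, with p = 0.984 by the same exact test. Thinning each cell to 5000 UMIs, which left out shallower cells, gave 68.7% and 74.3% (exact p = 0.667). A share of cells depends on how many rods a dissociation yields, and fewer AII cells in the retina and fewer in the suspension cannot be told apart.

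**Figure D2:**
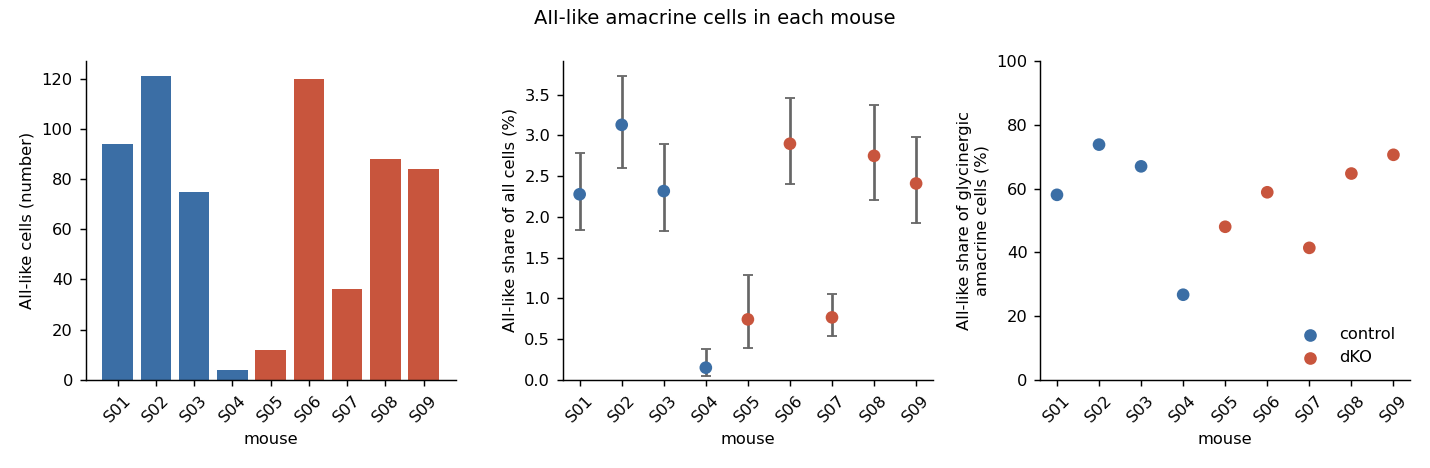
AII-like cells of each mouse as a number (left), as a share of all its cells with exact 95% binomial intervals for counting error (middle) and as a share of its glycinergic amacrine cells (right), for control (blue) and dKO (red) mice. S04, S05 and S07 lie at 0.148% to 0.765% of cells, and the other 6 mice lie between 2.28% and 3.13%.

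What sets AII-like cells apart was read against 3 nearby classes of amacrine cell. Other glycinergic cells (262 cells) had at least 2 UMIs of Slc6a9, more than of Gad1 plus Gad2, and fewer than 2 of Ebf3 but did not meet the AII rule, Ebf3-positive glycinergic cells (128) had at least 2 Ebf3 UMIs in place of fewer, and GABAergic cells (2025) had at least 2 UMIs of Gad1 plus Gad2, more than of Slc6a9, and none of the starburst genes Chat and Slc18a3. Counts were summed per mouse and class and compared within mice by the quasi-likelihood test of edgeR, adjusted by Benjamini-Hochberg over all genes tested, with the mouse as a block. Mice with at least 10 cells of both classes entered, which were 8, 7 and 8 mice, and S04 with its 4 AII-like cells entered none. All log2 fold changes below are AII-like over the other class, in the order other glycinergic, Ebf3-positive glycinergic and GABAergic, and a called gene had an adjusted p under 0.05. The 3 comparisons share the AII-like sums. Because the cells were set apart by 11 marker genes, those genes are given no test, and a p for another gene describes how steadily the difference recurred over mice.

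Against other glycinergic cells, 1276 of 10171 genes (12.5%) were higher and 1952 (19.2%) lower in AII-like cells. Against Ebf3-positive cells 941 of 9623 (9.78%) were higher and 1100 (11.4%) lower, and against GABAergic cells 2257 of 12072 (18.7%) were higher and 2983 (24.7%) lower. Of 9509 genes tested in all 3, 568 (5.97%) were higher and 510 (5.36%) lower each time, and 359 (3.78%) and 171 (1.8%) of them also in every mouse. The other glycinergic class held RNA of the RPE, since 8 RPE markers took 0.621% of its UMIs and 0.00611% of those of AII-like cells, and 5 of 5 tested RPE markers were lower in AII-like cells. With cells rich in RPE or rod RNA left out of both classes, an alternative chosen after seeing the data, 661 of the 1276 higher genes and 732 of the 1952 lower genes were called again. Over all genes, that alternative had 796 higher and 994 lower of 8549 tested. It held 198 of the 262 other glycinergic cells, and 3 control and 4 dKO mice. Against Ebf3-positive cells it had 2 control and 4 dKO mice. A call lost there thus also comes with fewer cells and mice.

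Of 8 AII markers that the rule did not use, 4 of 7 tested were higher and 1 lower against other glycinergic cells, 4 of 7 were higher and 3 lower against Ebf3-positive cells, and 6 of 8 were higher and 1 lower against GABAergic cells. Gjd2 (chromosome 2 of GRCm39, 113840079 to 113844574, minus strand), the connexin of the AII gap junction, had 196, 245 and 244 CPM in AII-like cells of control mice S01 to S03 and 63.4, 152, 147, 197 and 189 CPM in dKO mice S05 to S09. In other glycinergic cells it lay between 3.21 and 25 CPM (median 8.62) and in GABAergic cells between 15.6 and 23.1 CPM (median 19.1). AII-like cells were above both classes in every mouse, and S05 was the lowest of them. The log2 fold changes were 4.03 (standard error 0.35, adjusted p = 3.49e-05, by the quasi-likelihood test of edgeR after Benjamini-Hochberg adjustment), 3.57 (standard error 0.29) and 3.22 (standard error 0.19). Gjd2os lies on the opposite strand at this place, and the sources used here do not say whether strand was used in counting.

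The other markers of this kind split into those shared by the 3 comparisons and those that turned. Prox1, a homeobox factor, had 894 ± 187 CPM (SD, n = 8) in AII-like cells and 139.5, 353 and 81.9 CPM in the 3 classes, with log2 fold changes of 2.74, 1.55 and 3.45. Nfia, a nuclear factor I transcription factor, had 1444 ± 187 CPM (SD, n = 8) and changed by 1.43, 2.48 and 2.91. Scn1a, the sodium channel Nav1.1, had 863 ± 196 CPM (SD, n = 8) and changed by 2.78, 1.65 and 1.43. These 3 genes were called higher in all 3 comparisons. Nfib and Nfix, the paralogs of Nfia, did not follow it. Nfib was lower against both glycinergic classes and higher against GABAergic cells (-1.55, -2.08 and 1.06), and its call against other glycinergic cells was lost at -0.99 without cells rich in RPE or rod RNA. Nfix was lower against Ebf3-positive cells (-1.71) and higher against GABAergic cells (2.22), with -0.40 and no call against other glycinergic cells. That value was 0.32 without cells rich in RPE or rod RNA and not called, and it was called lower without S07 (-0.48), without S04, S05 and S07 (-0.47) and with core cells only (-1.06). Calb2, which encodes calretinin, was low at 25.4 ± 6.12 CPM (SD, n = 8) and was called against Ebf3-positive cells, with -1.29, a call lost without S01, S06 or S07. Against other glycinergic cells Calb2 had 0.84 and no call, but was called higher in 6 of 16 alternatives, among them 1.21 without S05 and 1.30 with core cells only. Against GABAergic cells Calb2 was the 1 of the 8 markers without a call. Leaving out cells rich in RPE or rod RNA gave 7 of 8 markers higher and 1 lower there.

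**Figure D3:**
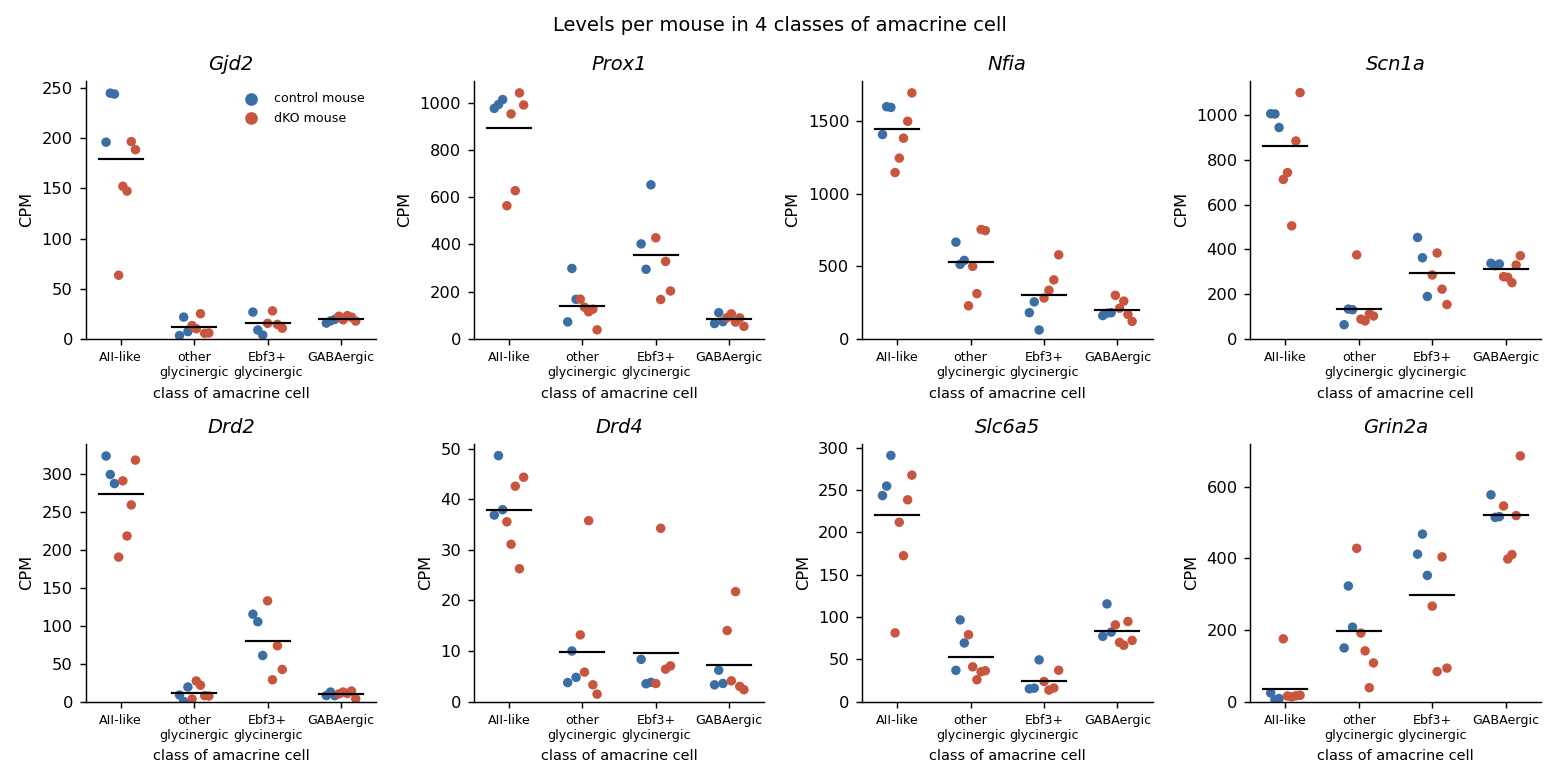
Level of 8 genes in CPM (y axes, linear, from 0) in AII-like cells and 3 other classes of amacrine cell, with 1 point per mouse with at least 10 cells of the class (blue control, red dKO) and a line at the mean. Gjd2, Prox1, Nfia, Scn1a and Drd2 have their highest mean in AII-like cells, while Grin2a has its lowest mean there with S05 apart at 175 CPM.

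The genes with the largest rise against other glycinergic cells, among those higher in all 3 comparisons and every mouse with at least 50 CPM, included more than known AII markers. Sec14l5, of the SEC14 family of lipid-transfer proteins, led with 124 ± 32.4 CPM (SD, n = 8) in AII-like cells and 1.12, 4.10 and 6.96 CPM in the others (6.33, 4.99 and 4.08). Kcnj5, the inward rectifier GIRK4 that G proteins open, had 92.8, 117 and 96.5 CPM in control and 63.4, 96.4, 63.1, 88.0 and 109.6 CPM in dKO mice, against 2.44, 17.2 and 2.22 CPM (5.84, 2.45 and 5.40). The ranges of AII-like cells and of each other class did not overlap for Kcnj5. Drd2, the D2 dopamine receptor, had 324, 299 and 287 CPM in control and 190.3, 291, 218, 259 and 318 CPM in dKO mice, and 11.8, 79.7 and 9.83 CPM elsewhere (4.44, 1.98 and 4.83). Itga8, an integrin subunit, had 123 ± 33.7 CPM (SD, n = 8) (4.49, 2.34 and 2.49), and Fbxo32, a ubiquitin ligase known from muscle wasting, 319.8 ± 106 CPM (SD, n = 8) (3.63, 1.93 and 1.61). Lypd1, a membrane-anchored modulator of nicotinic receptors, stood at 52.4 ± 7.84 CPM (SD, n = 8), and its locus overlaps Gpr39 on the other strand. Rbfox1, a splicing regulator of neurons, had 6575 ± 1242 CPM (SD, n = 8) and was also well read in the 3 other classes (3.61, 1.67 and 1.40). Sgcd, the delta-sarcoglycan of the dystrophin complex, had 639 ± 124 CPM (SD, n = 8) (3.52, 0.94 and 2.68). Evc, a protein at the base of the primary cilium, had 252 ± 58.0 CPM (SD, n = 8) against 12.5 and 11.9 CPM in the glycinergic classes, although it overlaps Crmp1 on the other strand.

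Of the 15 genes, 5 were long non-coding RNAs. Gm45459 (chromosome 8 of GRCm39, 63099369 to 63308416, minus strand) had 507 ± 90.1 CPM (SD, n = 8) against 61.3, 9.88 and 10.5 CPM (3.83, 5.76 and 5.72). BC046251 had 196 ± 66.3 CPM (SD, n = 8), 2810455O05Rik, which lies within Rab4a on the other strand, 79.0 ± 27.8 CPM (SD, n = 8), and Gm49289 and Gm49164, both on chromosome 14, 68.6 ± 20.4 CPM (SD, n = 8) and 65.6 ± 25.5 CPM (SD, n = 8). The highest mean of any of the 5 in another class was the 61.3 CPM of Gm45459 in other glycinergic cells.

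The 8 genes of the matching list downward were low in AII-like cells, and the demand of 50 CPM held for their mean in other glycinergic cells. Not all were well read in every class. In GABAergic cells Sytl2 lay between 9.01 and 16.7 CPM. In other glycinergic cells Pls3 had 353 CPM in S09 and 8.32 to 88.0 CPM in the rest of the 8 mice. Nhsl1 had 306 CPM in S09 there and 6.59 to 94.6 CPM in the rest. Grin2a, the NMDA receptor subunit GluN2A, had 23.9, 4.68 and 8.36 CPM in control and 175, 15.4, 12.9, 16 and 17.4 CPM in dKO mice, against means of 198, 297 and 521 CPM (-3.23, -4.25 and -4.77). S05, with 12 AII-like cells of which 1 was in the larger core cluster, was the 1 mouse above the rest. Rapgef4, the cAMP-activated exchange factor Epac2, had 44.0 ± 24.5 CPM (SD, n = 8) (-3.50, -2.92 and -2.22), Lrrc7, the postsynaptic scaffold densin, 21.6 ± 9.43 CPM (SD, n = 8) (-3.14, -3.50 and -2.29), and Cpne8, a copine, 36.7 ± 17.6 CPM (SD, n = 8) (-3.21, -2.47 and -2.35). Sytl2, a synaptotagmin-like protein of vesicle traffic, fell to 3.86 ± 2.40 CPM (SD, n = 8) (-4.44, -2.76 and -2.10), Pls3, an actin bundler, to 6.63 ± 4.74 CPM (SD, n = 8) and Nhsl1 to 5.18 ± 3.05 CPM (SD, n = 8). Flrt2, an adhesion protein, had 22.8 ± 15.7 CPM (SD, n = 8), and its call against Ebf3-positive cells was lost without cells rich in RPE or rod RNA (log2 fold change -1.24). In other glycinergic cells, which held RPE RNA, Rapgef4 ran from 127 CPM in S07 to 889 CPM in S01 over the 8 mice. Sytl2 ran from 13.6 CPM in S07 to 122 CPM in S06, and Trpm3 from 439.7 CPM in S07 to 10713 CPM in S01. What part RPE RNA has in the fold changes against this class was not tested.

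**Figure D4:**
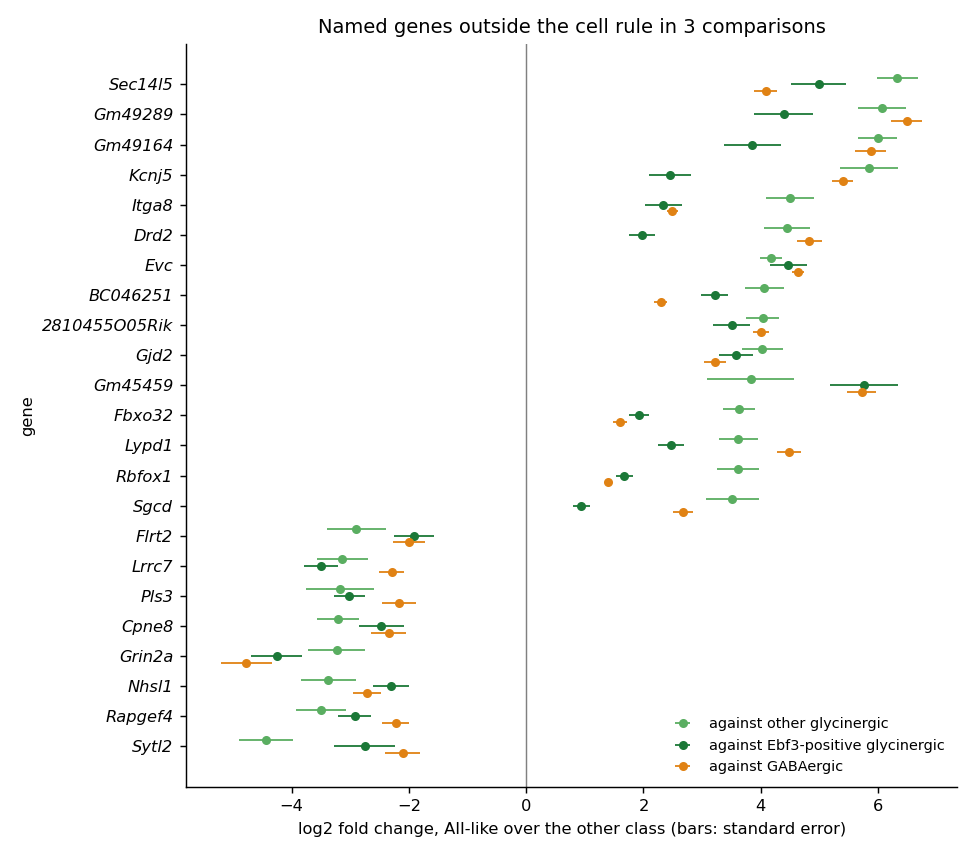
log2 fold change (x axis) of AII-like cells over other glycinergic, Ebf3-positive glycinergic and GABAergic amacrine cells for the 15 named genes that were higher and the 8 that were lower in all 3 comparisons, with standard errors as bars. All 69 points lie on the side that chose the genes, and Sec14l5 has the largest rise against other glycinergic cells at 6.33.

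Gap junctions and inhibitory transmission were described from lists chosen with earlier results known. The counts of this list and of those below stand beside shares over all genes. These were 12.5% higher and 19.2% lower against other glycinergic, 9.78% and 11.4% against Ebf3-positive, and 18.7% and 24.7% against GABAergic cells. Of 13 connexin, pannexin and scaffold genes, 5 were tested against other glycinergic cells, with 3 higher and 1 lower. Without cells rich in RPE or rod RNA these counts were 2 higher and 1 lower of 5. Against Ebf3-positive cells 2 of 5 were higher and 0 lower, and against GABAergic cells 2 of 6 were higher and 3 lower. Besides Gjd2, the scaffold protein ZO-1 (Tjp1) was higher in all 3 comparisons (1114 ± 134 CPM (SD, n = 8), 1.27, 1.41 and 0.27). Gja1, Gjb2 and Gjb6, connexins of glia and epithelia, were at 1.84, 0 and 0 CPM. For glycine handling and vesicle release, 8 of 25 tested genes were higher and 8 lower against other glycinergic cells, and 4 of 29 were higher and 19 lower against GABAergic cells. Slc6a5, the neuronal glycine transporter GlyT2, had 220.2 ± 66.6 CPM (SD, n = 8) and was higher in each (2.08, 3.44 and 1.40). Slc32a1, the vesicular transporter for glycine and GABA, was higher against both glycinergic classes and lower against GABAergic cells (1.10, 0.82 and -0.54). Cplx3, a complexin of ribbon synapses and AII cells, was higher in all 3 (179 ± 37.0 CPM (SD, n = 8), 2.13, 0.92 and 0.76), whereas Cplx2 (-0.85, -2.63 and -3.74), the calcium sensor Syt7 (-0.86, -3.32 and -4.98) and the active-zone protein Rims1 (-1.19, -2.05 and -2.34) were lower in all 3.

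Among 33 glutamate receptor genes and their auxiliary proteins, 13 of 29 tested were higher and 7 lower against other glycinergic cells, 8 of 30 were higher and 11 lower against Ebf3-positive cells, and 6 of 32 were higher and 19 lower against GABAergic cells. Without cells rich in RPE or rod RNA, 6 of 27 were higher and 7 lower against other glycinergic cells. The AMPA receptor subunits differed from one another. Gria3 had 929 ± 134 CPM (SD, n = 8) and was higher in all 3 comparisons (1.72, 1.34 and 0.87), while Gria1 was lower against other glycinergic (-2.30) and GABAergic cells (-1.54), with 0.46 and no call against Ebf3-positive cells. Within AII-like cells Gria1 stood at 16 CPM in the core and 548 CPM in the margin. The AMPA auxiliary proteins Shisa6 (951 ± 231 CPM (SD, n = 8), 2.36, 1.16 and 3.94), Cacng3 (1.78, 0.86 and 1.06) and Cacng5 (1.18, 2.01 and 2.47) were higher in all 3, and Cacng4 (-1.96, -1.58 and -1.57) was lower in all 3. The NMDA receptor subunits were split as well. The obligate subunit gene Grin1 was higher (1.27, 0.65 and 0.54), and Grin2a, Grin2b (-2.18, -1.91 and -2.36) and Grin2d (-1.58, -1.96 and -2.42) were lower in every comparison.

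Of the GABA and glycine receptor genes, 6 of 23 tested were higher and 9 lower against other glycinergic cells, and 4 of 24 were higher and 14 lower against GABAergic cells. The first counts became 3 higher and 10 lower of 22 without cells rich in RPE or rod RNA. The gamma3 subunit gene Gabrg3 had 2471 ± 523 CPM (SD, n = 8) (1.49, 1.65 and 3.20), and with the alpha3 subunit gene Gabra3 (1.56, 1.65 and 0.16) and the delta subunit gene Gabrd (3.19, 3.21 and 0.52) it was higher in all 3 comparisons. Gabra2 (-2.58, -2.34 and -4.02), Gabra4, Gabrb1, Gabrb2 (-2.45, -2.87 and -2.84) and the glycine receptor gene Glra2 (-1.11, -1.25 and -1.07) were lower in all 3.

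Voltage-gated channels gave 17 higher and 16 lower genes of 44 tested against other glycinergic cells, 8 and 21 of 47 against Ebf3-positive cells, and 12 and 29 of 48 against GABAergic cells. The higher count against other glycinergic cells fell to 10 of 44, with 16 lower, once cells rich in RPE or rod RNA were left out. Over all genes the higher count also fell, from 1276 of 10171 to 796 of 8549. Besides Scn1a, several potassium channel genes were higher in all 3. Kcnma1, the calcium-activated BK channel, had 4974 ± 1037 CPM (SD, n = 8) (3.19, 2.15 and 1.68), and Kcnq3, a subunit of the M current that sets firing near threshold, had 839 ± 199.9 CPM (SD, n = 8) (2.63, 2.45 and 2.46). Kcnh2 (2.57, 1.75 and 0.44) and Kcnh7 (1.48, 0.93 and 2.14), relatives of the rule gene Kcnh1, were also higher in all 3, and so was the T-type calcium channel gene Cacna1h (280.3 ± 74.2 CPM (SD, n = 8), 1.78, 2.43 and 1.78). The L-type channel gene Cacna1c (-2.46, -1.97 and -2.29), the A-type channel gene Kcnd3 (-2.05, -2.10 and -2.55) and Kcnc2 of the fast delayed rectifiers (-1.50, -1.63 and -3.72) were lower in all 3.

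Of the neuromodulator receptors, 4 of 12 tested were higher and 6 lower against other glycinergic cells, 3 of 13 were higher and 6 lower against Ebf3-positive cells, and 4 of 18 were higher and 12 lower against GABAergic cells. Drd2 of this list is described above. Drd4, a further dopamine receptor of the D2 class, had 37.9 ± 7.24 CPM (SD, n = 8) (2.18, 2.10 and 2.78), and the serotonin receptor gene Htr2a had 101 ± 38.7 CPM (SD, n = 8) (2.34, 2.46 and 4.41). Drd1, of the other class of dopamine receptors, had 6.84 ± 7.61 CPM (SD, n = 8), and without S05, at 25.4 CPM, the other 4 dKO mice lay between 1.2 and 5.32 CPM. It was tested only against GABAergic cells, where it was lower (-3.09), and Drd5 had no UMI in the AII-like sums of the 8 mice. The muscarinic receptor genes Chrm2 (-2.77, -2.88 and -3.22) and Chrm3 (-2.08, -2.53 and -2.93) and the metabotropic glutamate receptor genes Grm7 (-1.97, -2.50 and -3.53) and Grm8 (-1.79, -2.84 and -2.29) were lower in all 3.

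Among amacrine transcription factors, 5 of 25 tested were higher and 6 lower against other glycinergic cells, 6 of 24 and 8 against Ebf3-positive cells, and 11 of 32 and 17 against GABAergic cells. Besides Prox1 and Nfia, the neurogenic basic helix-loop-helix factors Neurod2 (49.7 ± 12.3 CPM (SD, n = 8), 1.02, 3.03 and 5.39) and Neurod4 (1.88, 0.74 and 2.55) and the nuclear receptor gene Rorb (0.54, 0.87 and 0.46) were higher in all 3. The homeobox gene Zfhx3 was lower in all 3 (-1.58, -2.54 and -4.15). Meis2, a homeobox gene known from GABAergic amacrine cells, was lower against other glycinergic and GABAergic cells, and Ebf1, a paralog of the rule gene Ebf3, was lower against both glycinergic classes (-2.12 and -4.53). Without cells rich in RPE or rod RNA, the calls against other glycinergic cells were lost for Neurod2 (0.43), Rorb (0.17), Zfhx3 (-1.70) and Meis2 (-1.22), and that of Neurod4 against Ebf3-positive cells was lost (0.68). The Zfhx3 value was not smaller in size than the -1.58 of the main comparison, and this alternative had fewer mice.

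Dab1, the marker with the highest median, is the cytoplasmic adaptor of the Reelin receptors. Of 27 tested genes of the Reelin pathway, 4 were higher and 9 lower against other glycinergic cells, 1 of 26 was higher and 6 lower against Ebf3-positive cells, and 2 of 27 were higher and 10 lower against GABAergic cells. The 4 of 27 higher against other glycinergic cells were near the 12.5% over all genes. Leaving out cells rich in RPE or rod RNA gave 1 higher and 6 lower of 26 against other glycinergic cells, beside 796 and 994 of 8549 over all genes. The receptor gene Vldlr was lower in all 3 (44.0 ± 43.0 CPM (SD, n = 8), -1.34, -1.42 and -1.60). The second receptor gene, Lrp8, had 169.9 ± 29.3 CPM (SD, n = 8) and was not called in any. Reln itself, the ligand, was lower against Ebf3-positive (-2.60) and GABAergic cells (-2.93). Dab2ip, which encodes a Ras GTPase-activating protein that binds Dab proteins, was the 1 gene of the list higher in all 3 (347 ± 92.2 CPM (SD, n = 8), 0.82, 0.96 and 0.98), and Itga3, an integrin subunit, was lower in all 3 (-2.71, -2.33 and -2.16).

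Adhesion molecules that sort synaptic layers gave 12 higher and 21 lower genes of 52 tested against other glycinergic cells (10 and 27 of 51 without cells rich in RPE or rod RNA), 10 and 31 of 54 against Ebf3-positive cells, and 9 and 43 of 56 against GABAergic cells. The members that were higher in all 3 included immunoglobulin-family proteins, namely Dscaml1 (3175 ± 498 CPM (SD, n = 8), 1.42, 1.95 and 2.79), Sdk1 (2047 ± 569 CPM (SD, n = 8), 3.98, 1.96 and 0.60), Cntn4 (1.70, 1.80 and 1.36) and Cntn6 (1.91, 1.01 and 2.48), and also the receptor phosphatase gene Ptprf (2.57, 1.04 and 3.01) and the cadherin gene Cdh12 (2.90, 1.16 and 0.72). The call of Cntn6 against Ebf3-positive cells was lost at 0.90 without cells rich in RPE or rod RNA. Of the relatives of these genes, Dscam (-0.88, -3.23 and -4.02), Sdk2 (-1.30, -1.80 and -0.93) and Cntn1 (-0.85, -1.21 and -1.01) were lower in all 3.

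Stress and immediate early genes were lower in AII-like cells for 18 of 21 tested against other glycinergic cells, but for 3 of 16 once cells rich in RPE or rod RNA were left out of both classes, and for 6 of 19 against Ebf3-positive and 6 of 23 against GABAergic cells. The last count was near the 24.7% lower over all genes against GABAergic cells. Over all genes 19.2% were lower against other glycinergic cells, and 994 of 8549 without cells rich in RPE or rod RNA. Of the interferon and antigen presentation genes, 5 were tested against other glycinergic cells, with 0 higher and 1 lower.

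The last comparison asked whether AII-like cells differed between dKO and control mice, and used 3 control and 5 dKO mice. All 3 control mice were high in Xist RNA, while S05 and S07 of the dKO mice were high in Y-linked RNA. This difference and the group can thus not be fully told apart. Of 11047 genes tested, 0 (0%) had an adjusted p under 0.05 in edgeR (Benjamini-Hochberg over the quasi-likelihood test), and 719 (6.51%) were under 0.05 before adjustment. DESeq2 called 0 genes and had 737 under 0.05 before adjustment, and limma-voom called 0 and had 556. With the Xist level as a covariate, edgeR called 0 genes and had 453 under 0.05 before adjustment. Standard errors of the log2 fold changes had a median of 0.34 under 20 CPM and 0.15 between 100 and 500 CPM, so a gene of the lower range needed a large change to be read. A p that misses the threshold does not show that the groups were alike.

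The 10 genes of lowest unadjusted p are given as values, and each had an adjusted p of 0.764 (the quasi-likelihood test of edgeR, Benjamini-Hochberg adjusted). Sema3e, a secreted semaphorin, had 20.1, 22.3 and 17.3 CPM in control and 50.7, 42.5, 43.3, 44.7 and 33.6 CPM in dKO mice. The groups did not overlap, which was so for 438 of the 11047 genes (3.96%) and is favoured by a choice on lowest p. The log2 fold change was 1.06 (standard error 0.17, unadjusted p = 9.76e-05, edgeR). Ndrg4, of the NDRG family, was the 1 gene of the 10 with a lower mean in dKO mice, with 207, 186 and 191 CPM in control and 134, 139, 127, 156 and 134 CPM in dKO mice and a log2 fold change of -0.51, which was -0.20 among core cells, where S05 with 7 such cells was left out. Aox1, an aldehyde oxidase, had 1.49 ± 0.402 CPM (SD, n = 3) and 9.54 ± 3.52 CPM (SD, n = 5), and Synm, an intermediate filament protein, 1.38 ± 0.802 CPM (SD, n = 3) and 8.49 ± 4.22 CPM (SD, n = 5). Their control levels rest on few UMIs. Control mouse S04, left out of the fit with 4 cells, had 80.8 CPM of Ndrg4, under every dKO mouse. Its Synm level was 20.2 CPM, above every dKO mouse. For the rest of the 10 genes S04 lay under every dKO mouse, as the other control mice did, with Pak3 at 30.3 CPM and the others at 0 CPM. The 4 cells held 98995 UMIs in all, so these levels rest on few UMIs. Pak3, a p21-activated kinase, had 78.4 ± 8.67 CPM (SD, n = 3) and 146 ± 29.0 CPM (SD, n = 5), a log2 fold change of 0.86 that was 0.11 among core cells. Wipi1, an autophagy protein, gave 0.84 and 0.0047 in the core, and Nkain2 1.25 and 0.44 in the core. Arhgef28 and Arhgap6, regulators of small GTPases, had 1.13 and 1.22. Aqp4, the water channel of Müller glia, had 1.16.

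RNA of other cell types differed between the mice. The 8 rod markers took 0.0389%, 0.0610% and 0.0390% of AII-like UMIs in control mice S01 to S03 and 0.533%, 0.0737%, 0.852%, 0.0954% and 0.0403% in dKO mice. The 2 high values were those of the rod-rich mice S05 and S07, and the rod-rich control mouse S04, with 4 cells and left out of the fit, had 1.11%, the highest of all 9. The means were 0.0463% ± 0.0127 (SD, n = 3) and 0.319% ± 0.360 (SD, n = 5), with p = 0.0714 by the exact two-sided permutation test, which could reach 0.0357. All 12 tested rod genes had an unadjusted p under 0.05, with a median log2 fold change of 2.68, and 0 passed adjustment. That median was 0.62 without S04, S05 and S07, 0.88 with S04 kept in and 1.53 in the core cells. Of 9 Müller genes, 6 had an unadjusted p under 0.05, with a median of 0.98 and of -0.18 for the 5 tested in the core cells. The median of the 9 was 1.11 without S04, S05 and S07 and 1.10 without cells rich in RPE or rod RNA. Their part in the values of Pak3, Wipi1, Nkain2 and Aqp4 was not tested.

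The genes that mark AII-like cells had no called change. Gjd2 averaged 229 ± 28.0 CPM (SD, n = 3) without and 149.7 ± 52.9 CPM (SD, n = 5) with tamoxifen, and its log2 fold change was -0.59 ± 0.28 (standard error, and an adjusted p = 0.769, the quasi-likelihood test of edgeR, Benjamini-Hochberg adjusted). Prox1 gave -0.26, Nfia -0.15, Scn1a -0.33 and Drd2 -0.26. The 8 markers outside the rule had a median of -0.19, against -0.0023 over all genes, and of -0.080 without S04, S05 and S07. Of 23 stress genes 0 were called, with a median of 0.53. That median was 0.45 without S04, S05 and S07, 0.42 with the Xist level as a covariate and -0.026 for the 17 tested in the core cells. Of 5 interferon and antigen presentation genes 0 were called, with a median of -0.095.

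**Figure D5:**
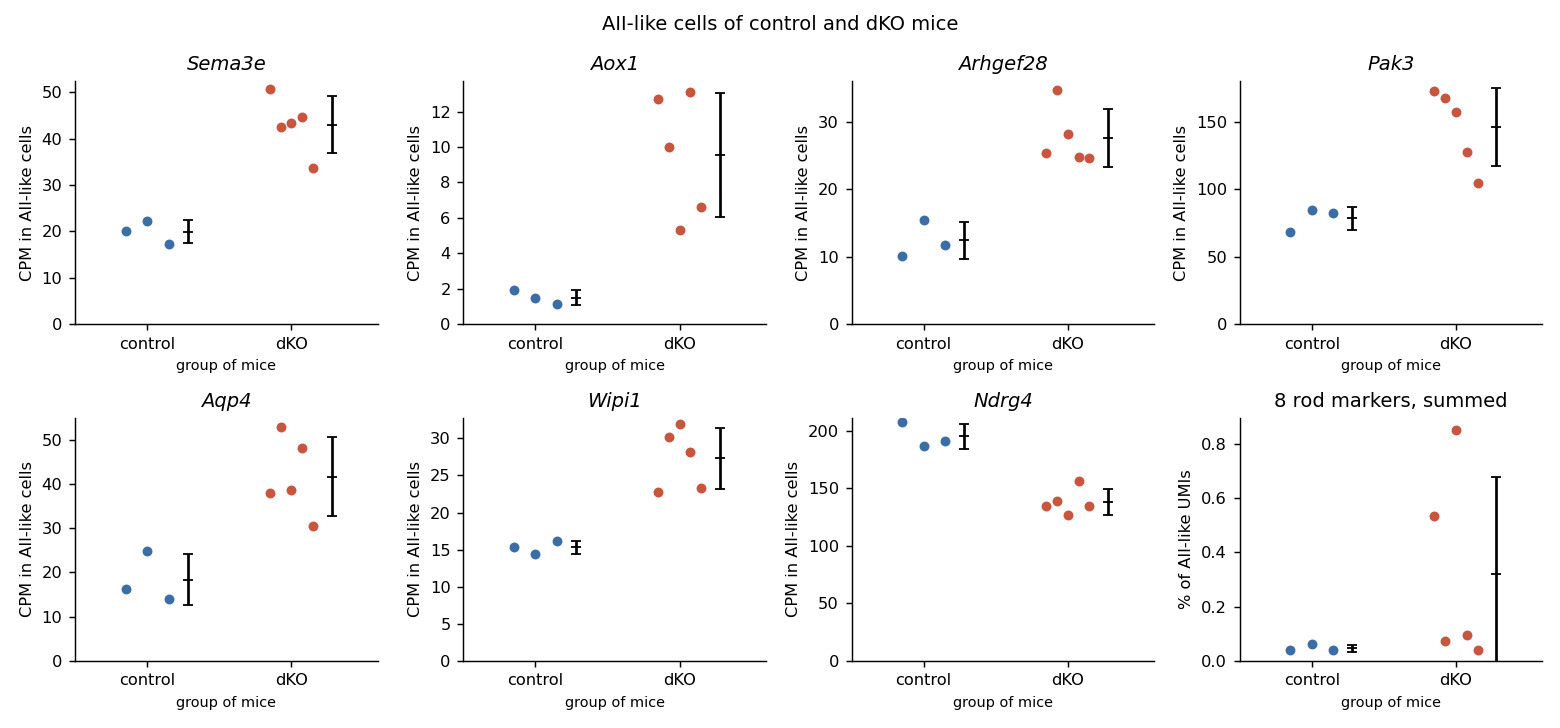
Levels of 7 genes in AII-like cells (CPM) and the share of their UMIs on 8 rod markers (last panel, percent) in 3 control (blue) and 5 dKO (red) mice, with 1 point per mouse and the mean ± SD in black, cut at 0 in the last panel. Ndrg4 was drawn as the gene with a lower mean in dKO mice among the 10 of lowest p, and the rest were those of lowest p. None passed adjustment, and S05 (0.533%) and S07 (0.852%) stand above the others in rod RNA.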

How the data were processed

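Single-cell RNA libraries of 9 mice (4 control, 5 dKO) were read from 1 matrix of raw UMI counts per gene and cell, which the authors made with split-pipe v1.0.4 on GRCm39.109, removing cells under 200 genes and genes in under 3 cells. No cell types were given, so cells were chosen by marker rules. The members and gene lists were chosen with earlier results of these data known. Doublets were not called. Counts were summed per mouse and class, leaving out mice with fewer than 10 cells, and tested in R 4.3.3 with edgeR 4.0.16 (TMM, filterByExpr, quasi-likelihood test, Benjamini-Hochberg threshold 0.05), with the mouse as a block between classes. DESeq2 1.42.0 and limma 3.58.1 (voom) were alternatives. The steps were tested on simulated data. Shares were compared by exact two-sided permutation tests (scipy 1.17.1). Binomial intervals are exact (95%) and, like UMI sums, cover counting error only. Named genes were the 10 of lowest p between dKO and control and, between classes, the 15 highest and 8 lowest fold changes against other glycinergic cells among genes called in all 3 comparisons and every mouse with at least 50 CPM, plus list members. Gene positions came from GENCODE M39 (GRCm39). Whether counting used strand is not given in the sources used here, so genes that overlap cannot be told apart. Results for some genes are not reported here.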

Additional observations from a re-analysis of the deposited data

Results flagged for a closer look

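Of 46 groups of values from 4 or 5 mice that were examined for a mouse far from the others, 4 had one, and chance gives about 1 in 20. In S05, Rapgef4 stood at 101 CPM in AII-like cells, against 31.2 to 40.5 CPM in the other 4 dKO mice. Grin2a stood at 175 CPM in S05, against 12.9 to 17.4 CPM. Drd1 stood at 25.4 CPM in S05, against 1.2 to 5.32 CPM. S05 gave 12 AII-like cells, and 7 of them lay in the 2 core clusters. Synm stood at 16 CPM in S07, against 5.99 to 7.61 CPM in the other 4.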

How the results depend on the processing

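Against other glycinergic cells, the 3228 called genes became 1790 (796 higher, 994 lower) without cells rich in RPE or rod RNA, and leaving out 1 mouse gave 2248 to 3643. Against Ebf3-positive cells, 2041 became 3153 (1255 higher, 1898 lower) with no filter on low counts, and 1618 to 2119 with 1 mouse left out. Against GABAergic cells 5240 became 4558 to 5639 with 1 mouse left out. The dKO comparison had 0 calls in all 19 alternatives, with 310 to 1646 genes under an unadjusted p of 0.05. Nfix against other glycinergic cells went from -0.40 to 0.32 without cells rich in RPE or rod RNA, and the cause was not tested.

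The difference in the share of all cells, dKO minus control, was -0.055 percentage points, -0.662 to 0.332 with 1 mouse left out (lowest without S04, highest without S02) and 0.111 without S04, S05 and S07. That in the share of glycinergic cells was 0.340, -9.56 to 6.15 with 1 mouse left out (the same mice), -0.0031 with a marker sum of at least 10 per 10000 and -1.55 without S04, S05 and S07. Leaving out S04, S05 and S07 between classes and in the shares, cells rich in RPE or rod RNA, and cells outside the 2 core clusters were choices made after seeing the data. S04 with 4 AII-like cells and S05 with 12 give the least precise sums. No paired analysis was possible because control and dKO mice share no replicate number or other pairing.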
